A study of Mus musculus with 8 samples.

Results

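The endothelial markers described here are 10 genes expressed by the cells that line blood vessels: Pecam1, Cdh5, Vwf, Kdr, Tek, Tie1, Egfl7, Emcn, Cldn5 and Eng. They were taken by symbol from tables of 99671 transcripts of 21949 genes, in which they held 61 transcript rows. Each gene was represented by its transcript with the highest mean fragment count over the 8 libraries. All 10 were found, and all 10 passed the filter on low counts, as did 16051 genes in all.

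The libraries came from whole testes of C57BL/6 mice at postnatal day 24, either wild type (WT) or Miwi-null. Miwi is the mouse PIWI protein made from Piwil1, a germ cell gene whose product works with piRNAs. Each genotype had 2 libraries of total RNA and 2 of ribosome-protected fragments (RPF, called footprints below), which are the stretches of mRNA held inside ribosomes during digestion. The labels name the genotype as Miwi-null without describing the allele, and they name no animals or litters, so the spread between replicates may be partly technical. No treatment or transgene is named for either genotype, and WT and null differ in the labels by genotype alone.

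Blood vessels of the testis run through the interstitium between the seminiferous tubules, so their endothelium makes up a small part of the organ. Endothelial cells hold to each other through VE-cadherin (Cdh5), PECAM-1 (Pecam1) and claudin-5 (Cldn5). They receive growth signals through the VEGF receptor KDR and the angiopoietin receptor TIE2 (Tek), with its relative TIE1. Transcription factors of the ETS family, which bind DNA at a GGAA core, drive many endothelial genes.

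Footprints of 8 of the 10 markers were called lower in null than in WT testes and 0 higher, where 13.3% of all genes were called lower. RNA was called lower for 4 of them, Egfl7, Eng, Cdh5 and Vwf, and higher for 0, where 20.8% of all genes were called lower. For Tek, Tie1, Emcn and Cldn5 only the footprint change passed the test, and of these Tek alone passed a test of the difference between both assays. Kdr and Pecam1 passed in neither assay, although Kdr RNA lay above the WT level in both null libraries and passed under 7 alternatives.

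The promoter windows of 4 markers that fell are shown first, since these genes moved in the same direction: Egfl7 and Eng fell in both assays, Tek and Emcn in footprints. The windows come from RefSeq (GRCm38.p6), which had 9 entries for 7 of the 10 markers, each running from 250 bases before to 50 after an annotated start. Pecam1, Cdh5 and Vwf had no entry. Capitals mark CAGGAAG or its complement CTTCCTG, a sequence with the ETS core that was searched on both strands.
Egfl7 (chr2:26583615-26583914, plus strand): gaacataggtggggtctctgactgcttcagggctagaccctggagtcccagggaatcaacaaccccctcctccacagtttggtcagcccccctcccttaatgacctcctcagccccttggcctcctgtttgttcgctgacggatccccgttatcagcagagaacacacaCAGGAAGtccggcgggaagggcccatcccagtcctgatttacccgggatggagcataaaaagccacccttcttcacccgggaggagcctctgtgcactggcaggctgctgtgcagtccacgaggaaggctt
Eng (chr2:32646345-32646644, plus strand): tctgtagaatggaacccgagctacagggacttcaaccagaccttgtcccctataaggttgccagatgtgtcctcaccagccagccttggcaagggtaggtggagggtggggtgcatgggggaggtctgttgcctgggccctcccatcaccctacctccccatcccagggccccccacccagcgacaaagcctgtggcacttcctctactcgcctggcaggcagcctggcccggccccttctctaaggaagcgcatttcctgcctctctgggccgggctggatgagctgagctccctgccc
Tek (chr4:94739039-94739338, plus strand): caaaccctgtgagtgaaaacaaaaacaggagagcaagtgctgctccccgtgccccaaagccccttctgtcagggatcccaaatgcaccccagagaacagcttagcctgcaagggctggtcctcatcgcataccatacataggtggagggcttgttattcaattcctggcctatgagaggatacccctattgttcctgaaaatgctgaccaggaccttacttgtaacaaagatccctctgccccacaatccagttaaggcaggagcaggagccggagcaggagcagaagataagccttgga
Emcn (chr3:137340828-137341127, plus strand): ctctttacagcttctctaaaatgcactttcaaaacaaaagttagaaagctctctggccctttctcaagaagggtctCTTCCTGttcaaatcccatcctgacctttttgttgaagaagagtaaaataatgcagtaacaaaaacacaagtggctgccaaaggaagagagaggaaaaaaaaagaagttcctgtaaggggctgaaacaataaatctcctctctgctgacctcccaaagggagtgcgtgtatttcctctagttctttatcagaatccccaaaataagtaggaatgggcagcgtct

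The sequence was present in 3 of the 9 windows of these markers, 2 of them at separate starts of Egfl7 and 1 at Emcn. It was present in 13.3% of the 32851 windows of that length in the table. Eng and Tek had no match in the window shown, although each of these windows holds the GGAA core or its complement TTCC. Other sequences with that core were not searched. Tie1 and Cldn5 also fell in footprints, and their windows, which are not shown, had no match. Another window of Egfl7 had none either. A TATAAA sequence, also searched on both strands and not overlapping the other, was found in 0 of the 9 windows and in 13.6% of all windows. Each match describes letters in the window and is not a measured binding site.

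Across the 8 libraries the counts summed over genes ranged from 11130954 to 28334618, so that 1 count stood for 0.0353 to 0.0898 CPM, the count scaled to library size. CPM values below use TMM, a normalization that centres most genes, so each change is read against that centre. Piwil1 had 8215 and 7165 counts in WT RNA against 46 and 26 in null RNA, and 14206 and 6868 in WT RPF against 37 and 94 in null RPF, low in all 4 null libraries. The null testes also held less late spermatid RNA: 8 late spermatid genes summed to 13966.5 and 13812.4 CPM in WT RNA against 1479.2 and 1474.1 in null RNA. In whole tissue, fewer cells of a type and less RNA per cell cannot be told apart.

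The members were present at low to moderate levels in all 8 libraries. Summed over the 10 genes, they held 87.04 and 75.35 CPM in WT RNA, 58.67 and 55.89 in null RNA, 39.49 and 41.81 in WT RPF and 22.6 and 21.6 in null RPF. Vwf supplied much of that sum in RNA; without it the 9 others summed to 45.8 and 39.24 CPM in WT RNA against 29.72 and 28.51 in null RNA. In both sums the null libraries lay below the WT libraries in each assay. The labelled tissue is testis rather than endothelium, and Emcn stood below 1 CPM on average over the libraries.

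**Figure D1:**
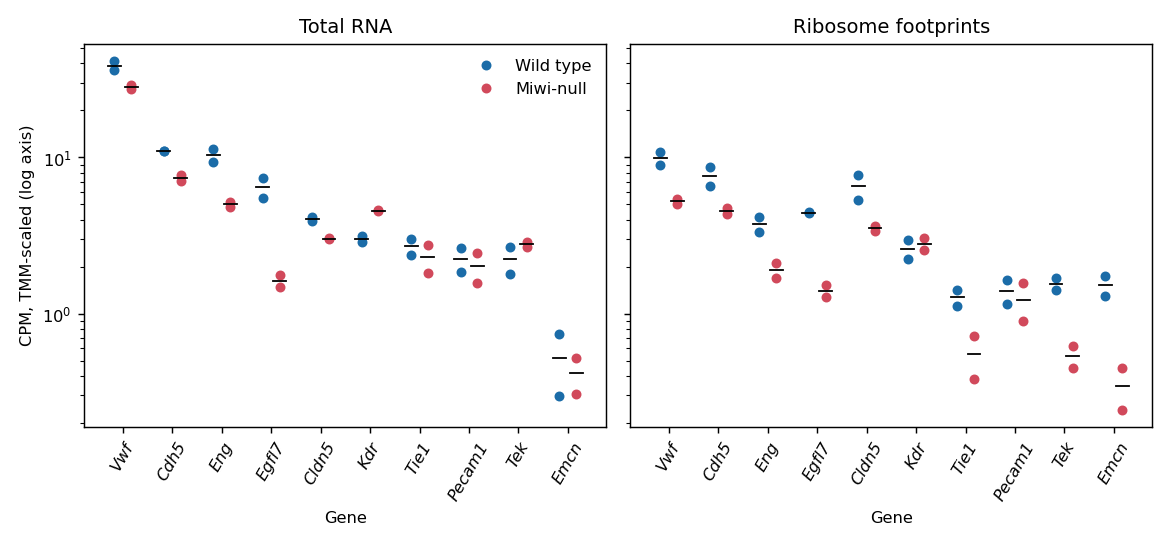
TMM-scaled CPM (log axis) of each marker in each library, total RNA on the left and footprints on the right, with WT and Miwi-null side by side; points are libraries and bars are means of 2. The null points lie below the WT points without overlap for 5 genes in RNA and for 8 in footprints, and above them for Kdr in RNA.

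The RNA comparison asked which of these transcripts differ in abundance without MIWI. Of the 10 members 4 were called lower and 0 higher at an edgeR adjusted p under 0.05, where 20.8% of all genes tested were called lower. Their median log2 change was -0.40, against -0.07 over all genes tested. Both null libraries lay below both WT libraries for 5 members, as for 43.1% of all genes, and above them for Kdr, as for 34.7%.

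The footprint comparison asked which genes had more or fewer footprints in total, without regard to the level of their RNA. Of the 10 members 8 were called lower and 0 higher, where 13.3% of all genes tested were called lower. The median log2 change was -0.93, against -0.0046 over all genes. Both null libraries lay below both WT libraries for 8 members, as for 29.3% of all genes, and above them for 0, as for 28.3%. Fitted on the 4 footprint libraries alone, the calls were 4 (Vwf, Tek, Egfl7 and Emcn); they were also 4 without WT RPF replicate 1 (Vwf, Egfl7, Emcn and Cldn5) and 3 without null RPF replicate 2 (Vwf, Egfl7 and Eng).

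Those were the deeper library of each genotype, and the replicates of both footprint groups differed in opposite ways, with a correlation of -0.808 across 10171 genes between their replicate differences. Within the deeper libraries, null RPF replicate 2 against WT RPF replicate 1, 8 of the 10 markers were lower in null. Within the shallower ones, null RPF replicate 1 against WT RPF replicate 2, 9 were. The 8 markers called were lower in null within both, which follows from their lack of overlap given above and is no separate result. The log2 differences of these 8 ranged from -2.83 (Emcn) to -0.65 (Cldn5) in the deeper libraries and from -1.67 (Tek) to -0.48 (Cdh5) in the shallower ones.

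**Figure D2:**
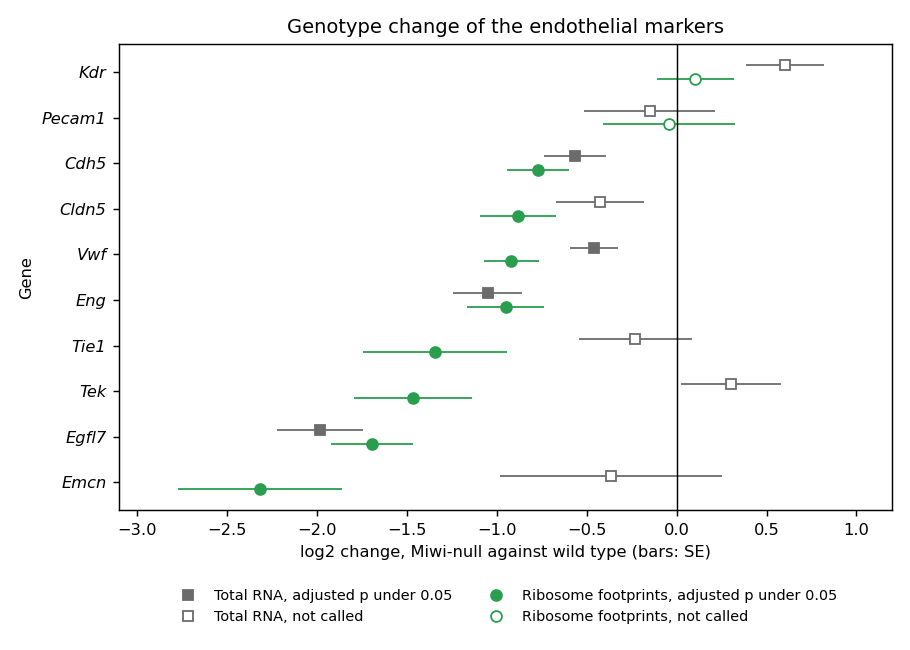
Log2 change between Miwi-null and WT for each marker in total RNA (squares) and footprints (circles), with standard errors from the edgeR model; filled symbols had an adjusted p under 0.05. The 8 filled circles lie between -2.32 (Emcn) and -0.77 (Cdh5), and the 4 filled squares between -1.98 (Egfl7) and -0.46 (Vwf).

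Among the junction and adhesion genes, VE-cadherin and claudin-5 footprints fell while those of PECAM-1 did not pass. Cdh5 (ENSMUSG00000031871.9, chromosome 8, 104101613 to 104144504, GRCm38) encodes the cadherin of endothelial adherens junctions. Its RNA stood at 10.95 and 10.95 CPM in the WT libraries and at 7.046 and 7.759 in the null ones. Its footprints stood at 8.692 and 6.581 CPM in WT and 4.734 and 4.369 in null. The groups did not overlap in either assay. The fall in RNA was 1.48-fold, a log2 change of -0.57 with an SE of 0.17 (adjusted p = 0.0324). That in footprints was 1.71-fold, or -0.77 ± 0.17 (adjusted p = 0.0127). The footprint call ended with the footprint libraries alone (adjusted p = 0.0774). It also ended without WT RPF replicate 1 (log2 change -0.51) and without null RPF replicate 2 (-0.68). The RNA call ended under 9 of 18 alternatives, among them DESeq2 (adjusted p = 0.115), no TMM (0.0845), TMM within each assay (0.0515), a replicate block (0.0539), and leaving out any 1 RNA library (0.0979 to 0.182) or null RPF replicate 2 (0.06325).

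Cldn5 (ENSMUSG00000041378.2, chromosome 16, 18776847 to 18778262) encodes a claudin that seals endothelial tight junctions, and its coding sequence of 654 nt is the shortest among the members. RNA was 4.164 and 3.946 CPM in WT and 2.987 and 3.051 in null. Footprints were 5.331 and 7.773 CPM in WT and 3.662 and 3.398 in null, the null libraries below the WT ones. Footprints fell by 0.88 ± 0.21 (adjusted p = 0.0161). That call ended with the footprint libraries alone (adjusted p = 0.0827) and without null RPF replicate 2 (log2 change -0.80). The RNA change of -0.43 ± 0.25 did not pass (adjusted p = 0.207), although the null libraries lay below the WT ones there too.

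Pecam1 (ENSMUSG00000020717.19, chromosome 11, 106654213 to 106715281) encodes an adhesion molecule of endothelial cells that platelets and leukocytes also carry. RNA was 2.619 and 1.861 CPM in WT and 2.451 and 1.569 in null, from 18 to 39 counts. Footprints were 1.154 and 1.645 CPM in WT and 0.8932 and 1.56 in null. The groups overlapped in both assays. The log2 changes were -0.15 (95% interval -0.98 to 0.68, adjusted p = 0.779) and -0.044 (-0.88 to 0.79, adjusted p = 0.948), and these intervals give the sizes that this depth could not tell from no change.

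Of the receptors, Tek, Tie1 and Eng fell in footprints, Eng also in RNA, and Kdr passed in neither assay. Kdr (ENSMUSG00000062960.10, chromosome 5, 75932827 to 75979072) encodes the main signalling receptor for VEGF-A. Its RNA was 2.888 and 3.127 CPM in WT and 4.519 and 4.621 in null. Its footprints were 2.241 and 2.95 CPM in WT and 3.037 and 2.566 in null. RNA was thus higher in both null libraries, while footprint groups overlapped. The RNA change was 0.60 ± 0.22 (adjusted p = 0.0583) and the footprint change 0.10 ± 0.21 (adjusted p = 0.758). The RNA change passed under 7 alternatives, among them no TMM (0.0296) and the 4 RNA libraries alone (0.0102).

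Tek (ENSMUSG00000006386.15, chromosome 4, 94739086 to 94874976) encodes TIE2, the tyrosine kinase receptor of angiopoietins. RNA was 2.687 and 1.787 CPM in WT and 2.681 and 2.877 in null, with overlapping groups. Footprints were 1.698 and 1.418 CPM in WT and 0.4466 and 0.6241 in null, from 50 and 25 counts against 5 and 18. The genotypes were thus apart in footprints and overlapping in RNA. Footprints fell by 1.46 ± 0.33 (adjusted p = 0.0122), whereas the RNA change was 0.30 ± 0.28 (adjusted p = 0.428). The footprint call ended without WT RPF replicate 1 (log2 change -1.265) and without null RPF replicate 2 (-1.78).

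Tie1 (ENSMUSG00000033191.14, chromosome 4, 118471191 to 118489849) encodes the second TIE receptor, which has no well-established ligand of its own and modulates TIE2. RNA was 3.022 and 2.383 CPM in WT and 2.757 and 1.831 in null, overlapping. Footprints were 1.12 and 1.418 CPM in WT and 0.7145 and 0.3814 in null, from 33 and 25 counts against 8 and 11. Footprints fell by 1.34 ± 0.40 (adjusted p = 0.0396). That call was lost under 10 of 18 alternatives, with adjusted p from 0.0505 to 0.328, the largest without null RPF replicate 2.

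Eng (ENSMUSG00000026814.16, chromosome 2, 32646595 to 32682669) encodes endoglin, a co-receptor for BMP and TGF-beta ligands, and its annotated span overlaps the coding gene Fpgs. RNA was 11.35 and 9.381 CPM in WT and 5.208 and 4.795 in null. Footprints were 4.176 and 3.347 CPM in WT and 1.697 and 2.115 in null. Null libraries lay below WT libraries in both assays. RNA fell by 1.05 ± 0.19 (adjusted p = 0.00326) and footprints by 0.95 ± 0.21 (adjusted p = 0.0126). The footprint call ended with the footprint libraries alone (adjusted p = 0.0654), without WT RPF replicate 1 (0.0817) and without null RPF replicate 1 (0.0523).

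The secreted and luminal products included both the member with the highest RNA counts and the one with the largest fall in RNA. Egfl7 (ENSMUSG00000026921.18, chromosome 2, 26581083 to 26592682) encodes a secreted factor of the endothelial matrix. Its RNA was 7.388 and 5.51 CPM in WT and 1.762 and 1.482 in null. Its footprints were 4.38 and 4.482 CPM in WT and 1.518 and 1.283 in null. Both assays separated the genotypes by wide gaps. RNA was 3.96-fold lower (log2 change -1.98 ± 0.24, adjusted p = 0.000394) and footprints 3.23-fold lower (-1.69 ± 0.23, adjusted p = 0.000907).

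Egfl7 is also the host gene of miR-126, an endothelial microRNA. Its mature 3p arm lies within the Egfl7 span at chromosome 2, 26591402 to 26591423, and is shown because the gene that carries it fell in both assays. The seed, bases 2 to 8, is in capitals.
mmu-miR-126a-3p: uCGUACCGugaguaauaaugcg

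The coding counts do not measure this microRNA. Vwf (ENSMUSG00000001930.17, chromosome 6, 125552948 to 125686679) encodes von Willebrand factor, the large glycoprotein that endothelium stores for platelet adhesion and that megakaryocytes also make. It had the highest RNA counts of the 10, on a coding sequence of 8439 nt. RNA was 41.24 and 36.11 CPM in WT and 28.95 and 27.38 in null. Footprints were 8.964 and 10.89 CPM in WT and 5.448 and 5.062 in null, and neither assay showed overlap. RNA fell by 0.46 ± 0.13 (adjusted p = 0.0273) and footprints by 0.92 ± 0.15 (adjusted p = 0.00279). The RNA call ended under 8 of 18 alternatives, among them DESeq2 (0.08355), no TMM (0.0553), a replicate block (0.0563), leaving out any 1 RNA library (0.0527 to 0.175) or null RPF replicate 2 (0.0567).

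Emcn (ENSMUSG00000054690.17, chromosome 3, 137341062 to 137431069) encodes endomucin, a sialomucin of the venous and capillary endothelial surface. RNA was 0.7388 and 0.2978 CPM in WT and 0.3064 and 0.5231 in null, from only 4 to 11 counts. Footprints were 1.732 and 1.305 CPM in WT and 0.4466 and 0.2427 in null, from 51 and 23 counts against 5 and 7. Footprints were thus lower in both null libraries, while RNA counts were too few to order the groups. Footprints were 4.98-fold lower (-2.32 ± 0.46, adjusted p = 0.00648), and the RNA change was -0.36 with a 95% interval of -1.77 to 1.04. The footprint call ended without null RPF replicate 2 (-1.755, adjusted p = 0.0972).

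Levels can be compared between genes only per length, here on the authors' deposited FPKM (fragments per kilobase of coding length, scaled to library size). In WT RNA the markers formed an upper and a lower set. The upper set ran from Egfl7 at 6.12 ± 1.28 (SD, n = 2) through Cldn5 (4.90 ± 0.203), Eng (4.19 ± 0.576) and Cdh5 (3.68 ± 0.0127) to Vwf (3.625 ± 0.351). The lower set ran from Pecam1 (0.813 ± 0.197) through Tie1 (0.628 ± 0.107), Kdr (0.589 ± 0.0312) and Tek (0.525 ± 0.151) to Emcn (0.524 ± 0.317). The ranges of neighbours overlapped throughout the lower set, and those of Eng, Cdh5 and Vwf overlapped in part, since Vwf spanned 3.376 to 3.873, Cdh5 3.671 to 3.689 and Eng 3.778 to 4.593. Egfl7 (5.212 to 7.022) and Cldn5 (4.76 to 5.047) did not overlap. In null RNA Egfl7 had moved from the top of the upper set to below Eng, at 1.61 ± 0.193 against 2.11 ± 0.119.

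In WT footprints Cldn5 led at 9.82 ± 2.19 FPKM (SD, n = 2), followed by Egfl7 at 5.24 ± 0.132 and Cdh5 at 3.215 ± 0.759. Emcn, last in RNA, came next at 1.92 ± 0.46, and its range overlapped that of Eng (1.90 ± 0.374). Vwf stood at 1.157 ± 0.111, Kdr at 0.632 ± 0.0962 and Pecam1 at 0.63 ± 0.131. Tek (0.457 ± 0.0767) and Tie1 (0.367 ± 0.0457) were lowest. In null footprints Cldn5 still led, at 5.15 ± 0.0495, and Tek and Tie1 were again lowest at 0.153 ± 0.0422 and 0.152 ± 0.0595.

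**Figure D3:**
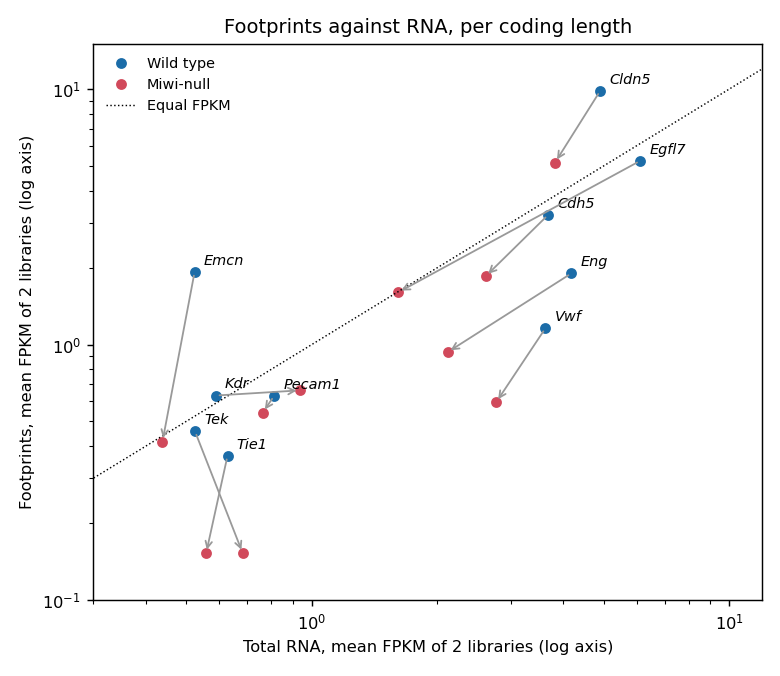
Mean FPKM of 2 libraries in footprints against total RNA (both log axes) for each marker, with an arrow from WT to Miwi-null and a dotted line of equal FPKM. Egfl7 moves down and left near the line and Eng parallel to it but below, while the arrows of Tek, Tie1 and Emcn run mainly downwards.

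The interaction of genotype and assay asked whether footprints changed beyond RNA, which is a change in translational efficiency (TE). Tek was the only member called, and it was lower, where 7.56% of all genes were called lower and 7.33% higher. The ratio of deposited footprint to RNA FPKM for Tek was 0.809 and 0.963 in the WT replicates and 0.187 and 0.258 in the null ones. Its TE fell by 1.77 ± 0.43 on the log2 scale, 3.40-fold (adjusted p = 0.0294). DESeq2 gave Tek no adjusted p and called 0 members. The call ended with a replicate block (-1.74, adjusted p = 0.0631) and without any single library other than WT RPF replicate 2 (-1.51 to -2.15, adjusted p from 0.052 to 0.11).

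Among the others, Emcn changed by -1.95 ± 0.81 (adjusted p = 0.141), Tie1 by -1.12 ± 0.51 (0.182), Kdr by -0.50 ± 0.30 (0.308), Vwf by -0.46 ± 0.20 (0.165) and Cldn5 by -0.46 ± 0.32 (0.384). Cdh5 stood at -0.20 ± 0.25 (0.627), Eng at 0.10 ± 0.29 (0.865), Pecam1 at 0.11 ± 0.52 (0.923) and Egfl7 at 0.29 ± 0.34 (0.62). The median over the 10 was -0.46, against 0.0432 over all genes. The Egfl7 and Eng ratios were 0.759 and 0.987 (Egfl7) and 0.471 and 0.433 (Eng) in WT, beside 0.966 and 1.03 (Egfl7) and 0.365 and 0.524 (Eng) in null. In the authors' deposited table, which pools both replicates, the log2 TE change was -0.63 for Vwf, -0.52 for Cldn5 and -0.36 for Cdh5, each marked Down, and -0.0033 for Eng, marked UnChange. The other 6 markers carried the mark Unknown there and no change was given.

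Within each genotype, footprints were compared with RNA. In WT 7 members were called, 5 lower in footprints and 2 higher, where 74.2% of all genes were called, 36.4% lower and 37.7% higher, with a median of -0.53 against 0.0124 over all genes. Vwf had the lowest ratio, 3.92-fold lower in footprints (log2 -1.97 ± 0.14, adjusted p = 2.91e-06), and Eng followed at -1.45 ± 0.19 (adjusted p = 0.00011). Emcn at 1.54 ± 0.44 (adjusted p = 0.0112) and Cldn5 at 0.67 ± 0.21 (adjusted p = 0.0184) were the pair that stood higher, with coding lengths of 783 and 654 nt, while Egfl7, at 834 nt, was lower (-0.55 ± 0.19, adjusted p = 0.0302). In null testes 6 members were lower and 0 higher, where 75.5% of all genes were called, 37.1% lower and 38.4% higher, with Tek at -2.28 ± 0.33 and Tie1 at -2.23 ± 0.40 beside Vwf at -2.43 ± 0.15. With a trend on coding length removed the WT calls were 4 rather than 7, the call for Emcn ended (0.84, adjusted p = 0.126), and the value of Cldn5 became -0.15 in WT and -0.72 in null, and that of Kdr 0.62 and 0.18. Without 1 WT library the WT calls were 3 or 4, 3 when WT RNA replicate 1 was left out and 4 for each of the other 3.

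Genes that act with these markers were taken from lists and read against the same shares of all genes, 20.8% lower and 16.5% higher in RNA and 13.3% lower and 12% higher in footprints. The cells of whole testis that these genes came from were not tested. Of 8 tested VEGF ligands and receptors, 2 fell and 2 rose in RNA, and 1 fell in footprints. The called ones were Vegfa, the main ligand of KDR, lower at -0.90 ± 0.26 and Flt1, the decoy-like receptor, lower at -0.89 ± 0.22, with Nrp2, a co-receptor, at 0.88 ± 0.24 and Pgf, a ligand of Flt1, at 0.89 ± 0.28. Flt1 was the one called in footprints, at -0.92. The most abundant others, Nrp1 (RNA -0.0214, footprints -0.41) and Vegfd (-0.0834 and 0.35), passed in neither assay.

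Of 3 tested genes of angiopoietin and TIE signalling, Foxo1, a transcription factor that TIE2 signalling restrains, fell in RNA by 0.38 ± 0.13 and stood at 0.00468 in footprints. Ptprb, the phosphatase VE-PTP that acts on TIE2, fell in footprints from 3.05 ± 0.147 to 1.15 ± 0.149 CPM (SD, n = 2), by 1.46 on the log2 scale (adjusted p = 0.00108). Its RNA changed by -0.37 ± 0.16 (adjusted p = 0.0961), and its TE fell by 1.09 (adjusted p = 0.0273). Tek and Ptprb thus both fell in footprints and in TE, although the TE call for Tek ended with a replicate block. Angpt2, the context-dependent ligand, passed in neither assay (RNA -1.07, footprints -0.38). The TE changes of Foxo1 (0.38) and Angpt2 (0.68) were positive and not called.

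Of 12 tested genes of endoglin and BMP/TGF-beta signalling, 2 fell and 2 rose in RNA and 1 fell in footprints. Tgfbr1, a type I receptor, rose in RNA by 0.69 ± 0.11 and fell in footprints by 0.57. Smad4, the common SMAD, rose in RNA by 0.47 ± 0.10 with footprints at -0.00708, and Id1, a BMP target, fell in RNA by 1.12 ± 0.26 with footprints at -0.23. Smad1 passed in neither (-0.0186 and 0.26). Bmp10 had no count in any library.

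Of 15 tested junction and adhesion genes, 3 fell and 2 rose in RNA, and 3 fell and 4 rose in footprints. Cd34, a sialomucin of endothelial and other progenitor cells, fell from 13.5 ± 0.484 to 5.61 ± 0.294 CPM (SD, n = 2) in RNA and from 25.7 ± 1.38 to 9.29 ± 0.00218 in footprints, by 1.26 and 1.47 on the log2 scale. Icam2, an adhesion molecule of resting endothelium, fell by 2.84 ± 0.66 and 2.13, from means of only 0.935 CPM in RNA and 1.01 in footprints. In the other direction, Vcam1 rose by 0.80 ± 0.09 and 1.02. Its mean of 235.7 CPM in WT footprints stood far above the 10 markers summed there (39.49 and 41.81 CPM), and its source cells were not tested. Plvap, the diaphragm protein of fenestrated capillaries, was called in footprints alone, higher by 1.29 (adjusted p = 0.0393), from 0.618 ± 0.00914 to 1.38 ± 0.692 CPM. Of the catenins, which bind the inner part of cadherins, Ctnnd1 rose in footprints by 0.43 (RNA 0.11, not called). Ctnnb1 passed in neither (-0.16 and 0.24), and the difference between them was not tested.

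Of 17 transcription factors of endothelium, 3 fell and 1 rose in RNA, and 1 fell and 1 rose in footprints. Sox17, a factor of arterial endothelium that germ cells also express, rose by 1.01 ± 0.13 and 1.82. Elk3, an ETS factor, fell by 1.73 ± 0.54 and 2.07, and Klf2, a factor induced by blood flow, fell in RNA by 0.90 ± 0.14 with footprints at 0.0389. The ETS factors Erg (RNA -0.26), Fli1 (-0.065) and Ets1 (-0.47) passed in neither assay, and neither did Klf4 (-0.0675 and -0.18) or Epas1 (-0.0759 and 0.0594). Of 6 Notch genes 3 fell in RNA and 2 in footprints: Jag1, a Notch ligand, fell by 1.496 ± 0.125 and 1.52, Notch1 by 0.55 ± 0.12 and 0.72, and Hey1, a Notch target, in RNA by 0.84 ± 0.17. Hes1 passed in neither (-0.20 and 0.16).

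Of 7 genes of haemostasis at the vessel wall, 2 fell in each assay and 0 rose: Thbd, or thrombomodulin, by 0.68 ± 0.15 and 0.66, and Plat, the tissue plasminogen activator, by 0.76 ± 0.13 and 0.49. Entpd1 passed in neither (0.0156 and -0.33). Of 17 tested further endothelial-enriched genes, 1 fell and 3 rose in RNA, while 5 fell and 2 rose in footprints. Those that fell in footprints were Podxl (-1.80), Mmrn2 (-1.45), Cd93 (-1.40), Ramp2 (-1.33) and Ecscr (-1.28). Their RNA changes of -0.22, -0.0741, -0.72, -1.08 and -0.79 did not pass. The difference between both assays passed for none of them. In TE 0 of the 17 were called lower and 0 higher, where 7.56% of all genes were called lower and 7.33% higher. Rhoj, a GTPase of endothelium, fell in RNA by 1.14 ± 0.39 (footprints -0.53, not called). Cd36, a fatty acid carrier that other cell types also express, rose by 1.41 ± 0.17 and 1.21, and Robo4, an endothelial guidance receptor, by 1.35 ± 0.30 and 1.38. Rasip1, among the most abundant of the list, stood at -0.21 and -0.18 and passed in neither.

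**Figure D4:**
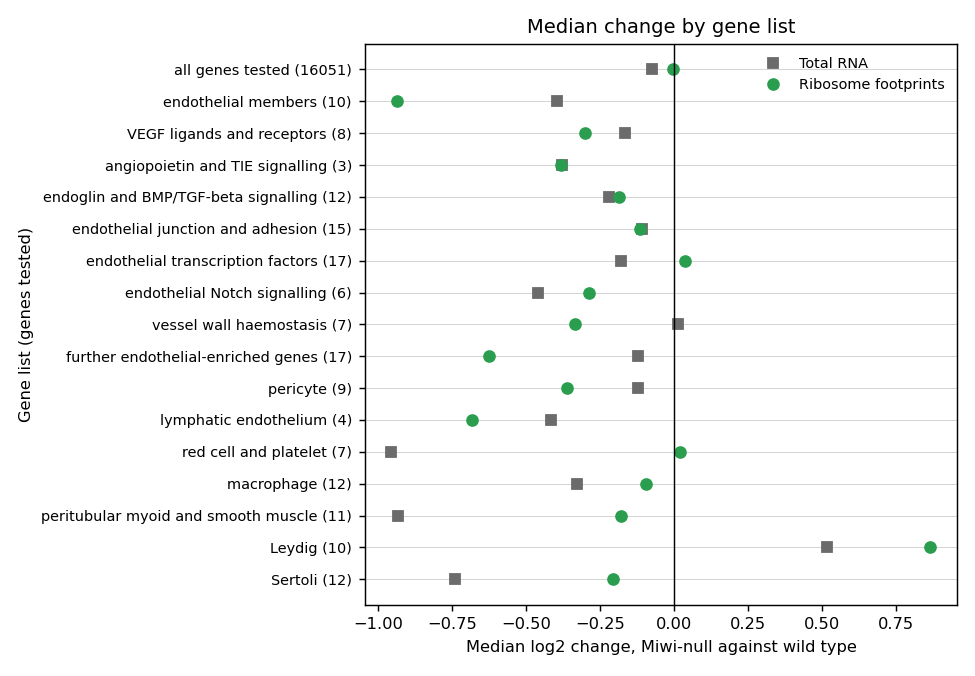
Median log2 change between Miwi-null and WT of each gene list in total RNA (squares) and footprints (circles), with the number of genes tested in parentheses. The late spermatid genes (median footprint change -6.30) are left off; of the lists plotted the endothelial markers had the lowest footprint median (-0.93), and the further endothelial-enriched genes stood at -0.63 in footprints and -0.12 in RNA.

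Markers of other cells that whole testis holds were read against the shares of all genes called. Those were 20.8% lower and 16.5% higher in RNA, and 13.3% lower and 12% higher in footprints. The part of these cells in the results was not tested. Of 9 tested pericyte genes 2 fell in RNA and 1 in footprints, with a summed level of 47.35 to 56.75 CPM in WT RNA and 41.43 to 41.67 in null RNA. Of 4 tested lymphatic endothelial genes 1 fell in RNA and 2 in footprints, and their summed footprints were 53.92 and 55.83 CPM in WT against 29.83 and 34.64 in null. Smooth muscle and peritubular myoid genes fell in RNA for 9 of 11 and in footprints for 3, with medians of -0.93 and -0.18. Sertoli genes fell in RNA for 8 of 12 and rose for 0, and in footprints 4 fell and 1 rose, with a median of -0.21. Leydig genes rose for 5 of 10 in RNA and fell for 1, and in footprints 7 rose and 0 fell. The endothelial markers, by comparison, had medians of -0.40 in RNA and -0.93 in footprints.

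Of the red cell and platelet genes, only the platelet ones bear on Vwf and Pecam1. In RNA 4 of the 7 tested fell, all of them red cell genes, and 1 rose. Of all genes 20.8% were called lower and 16.5% higher. Medians were -0.95 in RNA and 0.0202 in footprints. Over the whole list, summed RNA was 87.38 and 75.42 CPM in WT against 51.39 and 51.44 in null. The platelet gene Gp9 had no count in any library. Of the other platelet genes, Pf4 stood at 2.619 and 3.276 CPM in WT RNA and 1.302 and 1.744 in null RNA, and at 16.13 and 12.48 in WT footprints and 9.736 and 15.78 in null footprints, and passed in neither assay. Itga2b rose in RNA by 1.28 on the log2 scale (adjusted p = 0.0145), and Ppbp was not tested. Macrophage genes fell in RNA for 1 of 12 and rose for 3, beside those same shares of all genes. They summed to 255.7 and 273.7 CPM in WT RNA and 218.9 and 214.7 in null RNA.

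The genes whose profile over the 8 libraries was closest to the mean profile of the 10 markers were Mex3c, Zfp451, Adam15, Chsy1 and Lcor, out of 11799 with at least 5 CPM. Likeness was the root mean square difference of log2 CPM centred on each gene's mean, which was 0.121, 0.131, 0.135, 0.141 and 0.142 for these. Among the markers themselves Cdh5 was nearest to that mean profile (0.19) and Emcn farthest (0.814). The 5 genes were chosen for their small distance, so theirs and the markers' distances are not compared.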

How the data were processed

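Total RNA and footprints of WT and Miwi-null testes were analysed from the deposited tables. The authors deposited fragment counts per transcript as whole numbers, with no normalization, per the file headers. They also deposited FPKM, and a length column that is a multiple of 3 in 84.7% of rows with a length, hence read as coding length. The TE ratios printed are of the authors' deposited footprint to RNA FPKM, and the log2 TE change in the authors' table pools replicates. All other TE changes and calls are the interaction of genotype and assay, fitted to the counts. Cutadapt 2.5, Bowtie 1.2.2, STAR 2.5.0a and build GRCm38 appear in the submitters' processing notes, without roles. The counting program and any use of strand were not stated, so genes overlapping others (Eng with Fpgs; Cdh5, Kdr and Emcn with long noncoding RNAs) may share reads. Transcript models of a gene can share fragments, so 1 transcript stood for each gene, and counts summed over genes are sums of those transcripts.

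The filter of edgeR 4.0.16 (R 4.3.3), filterByExpr, ran before TMM scaling with its count minimum at 10 and its total at 15. A robust quasi-likelihood model of 4 groups, with 4 residual degrees of freedom, was fitted to 16051 genes and tested on simulated data. Adjusted p (Benjamini-Hochberg, all genes) under 0.05 was called; intervals cover 95%. Alternatives were DESeq2 1.42.0 and other scaling, filter, transcript, length, block and library choices. Members and lists were chosen with earlier results of these data known. Named were the 10 members, Piwil1, the 5 genes nearest in profile and, from each pathway list, the 3 most abundant genes tested and any called with a change over 2-fold. Vegfa, Flt1, Pgf, Hey1, Erg, Fli1, Ets1, Pf4, Itga2b and Ppbp fall outside that rule and were chosen after their values were seen. Sequences are from RefSeq, GRCm38.p6.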

Additional observations from a re-analysis of the deposited data

Results flagged for a closer look

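By the interaction test of the edgeR model, the genotype change differed between footprints and total RNA for 1 of the 10 members and 4 of the 36 pathway genes named by the rule, where 14.9% of all genes were called. Tek, the angiopoietin receptor, differed by -1.766 on the log2 scale (adjusted p = 0.02945), with footprints lower in both null libraries and overlapping RNA. Ptprb, the phosphatase that acts on it, differed by -1.087 (adjusted p = 0.02733). Tgfbr1 differed by -1.263 (adjusted p = 0.001634), its RNA higher and its footprints lower in null testes. Smad4 differed by -0.4761 (adjusted p = 0.04934), its RNA being higher. Klf2 differed by 0.9428 (adjusted p = 0.02159), its RNA being lower. Of the genes nearest to the markers in profile, Mex3c (-0.51, adjusted p = 0.0287) and Zfp451 (-0.57, adjusted p = 0.0155) passed this test. They were chosen for likeness to the markers over these same libraries, so their calls follow from that choice and are no separate result.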

How the results depend on the processing

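The counts of members called changed as follows. RNA (4 members) became 2 with DESeq2 and 2 with a replicate block, and ranged from 2 to 5 with 1 library left out. Footprints (8) became 4 with that assay alone and ranged from 3 to 7 with 1 library left out. TE (1) became 0 with DESeq2 and 0 with a replicate block, and ranged from 0 to 1 with 1 library left out. Footprints against RNA in WT (7) became 4 with DESeq2 and 4 with the length trend removed, and ranged from 3 to 7 with 1 library left out. In null (6) the range was 5 to 6. Blocked by genotype and number, TE had 1 member called among 1850 genes. The labels do not say whether same-numbered libraries share a sample, and weak correlations do not settle it. For 5 of the 6 pairs of groups, replicate differences correlated between -0.107 and 0.0733. Between WT and null footprints they correlated at -0.808, and with numbers crossed there, an alternative chosen after seeing the data, 5 members were called in RNA, 8 in footprints and 2 in TE. All genes called were then 9102 rather than 5984 in RNA, 8183 rather than 4073 in footprints and 6539 rather than 2390 in TE. With each assay alone they were 9041 in RNA and 1983 in footprints, and TE had 1237 with the replicate block. Without 1 library they ranged from 3244 to 7095 in RNA, 2939 to 5170 in footprints and 620 to 3636 in TE. Without TMM the share of calls that were higher was 55.1% rather than 44.13% in RNA and 29.18% rather than 49.21% in TE (38.98% with TMM within each assay), and the median TE change of all genes was -0.0989 rather than 0.0432.

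Signs turned for these values; the cause was not tested. In RNA, without TMM, Vegfd was 0.01354, Nrp1 0.07428, Smad1 0.07967, Klf4 0.03034, Epas1 0.02147 and Mmrn2 0.02135. With the length trend removed Vegfd was 0.03113 and Smad1 0.03982. Nrp1 and Smad1 were 0.01681 and 0.02012 with DESeq2, 0.04473 and 0.0487 with TMM within each assay, and 0.04861 and 0.0424 with RNA alone. In footprints Pecam1 was 0.007282 with crossed numbers, Foxo1 -0.04056 without TMM and -0.03196 with the length trend removed, Smad4 0.01264 with DESeq2 and Klf2 -0.004528 without TMM. For TE without TMM, Pecam1 was -0.02858 and Eng -0.03897. With the length trend removed, footprints against RNA in WT were 0.6175 for Kdr, 0.1901 for Tek and -0.1548 for Cldn5, and in null 0.1799 for Kdr and -0.7231 for Cldn5. With 1 library left out, RNA changes ranged from -0.5157 to 0.1221 (Pecam1), -0.5616 to 0.02425 (Tie1), -0.8475 to 0.4442 (Emcn), -0.4344 to 0.223 (Vegfd), -0.2591 to 0.245 (Nrp1), -0.1855 to 0.1648 (Smad1), -0.1458 to 0.008024 (Klf4), -0.002623 to 0.08311 (Entpd1), -0.5283 to 0.5329 (Mmrn2) and -0.7819 to 0.1542 (Podxl). Footprint changes ranged from -0.5863 to 0.2119 (Pecam1), -0.07188 to 0.2873 (Kdr), -0.01651 to 0.6119 (Nrp2), -1.689 to 0.4761 (Angpt2), -0.04686 to 0.105 (Foxo1), -0.03497 to 0.04515 (Smad4), -0.07735 to 0.2045 (Klf2) and -0.09208 to 0.2838 (Epas1). TE changes ranged from -0.5037 to 0.4646 (Pecam1) and -0.1592 to 0.2637 (Eng), and footprints against RNA from -0.4162 to 0.00166 (Kdr, WT) and -0.7565 to 0.1046 (Emcn, null).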

Other observations

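The Vwf gene held shorter coding models whose counts differed in proportion from the full one. The full coding model of 8439 nt had 614 and 485 counts in WT RNA, 378 and 314 in null RNA, 264 and 192 in WT footprints and 61 and 146 in null footprints. A coding model of 1215 nt had 32 and 24, 30 and 24, 30 and 27, and 9 and 34 counts in the same order. The models can share fragments, and the difference was not tested.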
